A study of Mus musculus with 12 samples.

Results

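Sry, Sox9, Sox8 and Sox10 are the Y-linked testis-determining gene and the SoxE genes, taken by symbol as 4 of the 32285 genes counted in fetal mouse gonads at E12 (23 ± 3 tail somites). The 12 single-cell libraries, made with droplet 10x chemistry that tags transcripts near their 3′ end, formed 6 groups of 2: XX and XY gonads of wild-type (WT), -KTS KO and +KTS KO mice. WT1 is a zinc finger regulator of the early gonad whose splice variants carry (+KTS) or lack (-KTS) 3 amino acids between the last zinc fingers. -KTS KO gonads (labelled minusKTS KO, homozygous) could not make the -KTS variant, and +KTS KO gonads (labelled plusKTS KO, homozygous, the mouse model of Frasier syndrome) could not make +KTS. All groups shared a mixed B6CBAF1/JRj background. Some -KTS KO libraries pooled gonads of several embryos, and no cell type was sorted, so each library held all the cells of the dissected gonad.

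SRY binds DNA through an HMG box, a domain of the whole SOX family. In the XY gonad Sry is switched on for a short time in the bipotential supporting lineage and raises Sox9, which drives those cells to become Sertoli cells, the nurse cells of the testis. Sox8 and Sox10 are the close relatives of Sox9 in the SoxE group and can share its functions; Sox10 is otherwise best known in neural crest and glia. Without Sox9 the same lineage forms pre-granulosa cells, which mark the ovary.

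In GRCm38 with GENCODE M21, Sry (ENSMUSG00000069036) was a single exon on the minus strand of chromosome Y at 2662471 to 2663658, encoding 395 residues. Sox9 (ENSMUSG00000000567) lay on chromosome 11 at 112782224 to 112787760 on the plus strand, with 3 exons and 507 residues. Sox8 (ENSMUSG00000024176) lay on chromosome 17 at 25565892 to 25570686 on the minus strand, with 3 exons and 464 residues, and its first exon overlapped the antisense gene 2810468N07Rik (25570358 to 25575043). Sox10 (ENSMUSG00000033006) lay on chromosome 15 at 79154908 to 79165240 on the minus strand, with 5 exons and 466 residues. The coding stretch of the HMG box is shown because it is the part that all 4 genes share. It spans 79 codons in each (codons 5 to 83 of Sry, 105 to 183 of Sox9, 99 to 177 of Sox8 and 104 to 182 of Sox10), and capitals mark the 123 of 237 bases that were identical in all 4:
Sry: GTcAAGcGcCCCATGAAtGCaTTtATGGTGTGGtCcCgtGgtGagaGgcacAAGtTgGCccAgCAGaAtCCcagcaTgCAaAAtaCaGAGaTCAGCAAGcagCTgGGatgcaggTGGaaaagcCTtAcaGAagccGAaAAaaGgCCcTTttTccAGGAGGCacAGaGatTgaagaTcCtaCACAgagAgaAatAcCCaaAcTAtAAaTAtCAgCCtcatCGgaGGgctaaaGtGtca
Sox9: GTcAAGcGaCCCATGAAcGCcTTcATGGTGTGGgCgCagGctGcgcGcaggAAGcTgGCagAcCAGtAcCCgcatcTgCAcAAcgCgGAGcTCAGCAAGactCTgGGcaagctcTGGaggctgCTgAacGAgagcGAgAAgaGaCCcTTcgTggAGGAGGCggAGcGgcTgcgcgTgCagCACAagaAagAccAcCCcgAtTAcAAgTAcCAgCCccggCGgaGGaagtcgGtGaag
Sox8: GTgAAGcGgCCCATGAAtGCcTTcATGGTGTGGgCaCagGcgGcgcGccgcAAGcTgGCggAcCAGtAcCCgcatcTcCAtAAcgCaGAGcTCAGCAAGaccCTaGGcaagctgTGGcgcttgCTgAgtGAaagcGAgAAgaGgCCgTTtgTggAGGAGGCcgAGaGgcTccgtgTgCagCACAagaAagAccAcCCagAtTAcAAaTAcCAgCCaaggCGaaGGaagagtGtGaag
Sox10: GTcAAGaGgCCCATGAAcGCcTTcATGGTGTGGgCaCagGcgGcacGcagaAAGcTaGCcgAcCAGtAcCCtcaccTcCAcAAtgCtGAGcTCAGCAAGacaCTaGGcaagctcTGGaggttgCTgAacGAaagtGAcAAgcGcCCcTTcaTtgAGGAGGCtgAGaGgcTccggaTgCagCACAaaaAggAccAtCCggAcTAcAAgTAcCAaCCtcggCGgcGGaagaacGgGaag

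Over this stretch the SoxE genes were 81.4% to 85.2% identical to each other, with Sox9 and Sox8 the closest pair. Sry shared 59.5% with Sox9, 60.8% with Sox8 and 59.5% with Sox10. Counts were taken near the 3′ end of transcripts, and whether any counted read fell in this stretch was not tested. In this annotation the Sry transcript was 1188 bases long for 395 residues, and that of Sox9 4135 bases for 507. Sry reads past its annotated end would not be counted, and their number was not tested.

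The libraries held 108111924 to 147968666 unique molecular identifiers (UMIs, counted transcripts) each. Of 103730 barcodes 76976 cells were kept, and 66156 were gonadal somatic cells once germ, endothelial, blood and mesonephric-duct clusters were set aside. Median depth per gonadal somatic cell ran from 9803 to 18916 UMIs between libraries, and pairs of libraries shared 6 to 46 barcodes. Xist and the Y-linked genes matched the sex label of all 12 libraries, whereas counts near the 3′ end add up both Wt1 splice forms and so did not check the genotype. XY +KTS KO library 1 stood apart, with a level of the immediate early gene Fos of 627 CPM (UMIs scaled to 1e6 per library) against 47.0 to 140 CPM elsewhere. It also gave 3126 of the 3196 cells of 1 cluster (cluster 8, below). In XX -KTS KO library 2 only 5638 of 10491 barcodes were kept. Fold changes of the 4 genes and counts of the gene lists that use either are given again without it, an alternative chosen after seeing the data. The replicates were independent by the study's design, and p-values here measure only the spread between these libraries.

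Supporting-lineage cells were taken as the 19328 cells of clusters that met a marker rule for Sertoli, pre-granulosa or pre-supporting cells, with the 4 Sox genes used neither to cluster nor to name. Cluster 12 was Sertoli-like, with all 8 Sertoli markers raised, and 99.7% of its cells were XY WT. Cluster 14 was pre-supporting-like and 84.9% XY WT. The lineage was split by genotype elsewhere, since cluster 4 (60.4% XY -KTS KO) and cluster 8 (pre-granulosa-like, 98.0% XY +KTS KO) were each mostly 1 group. Cluster 4, led by Wfdc10, Wfdc13 and Cpa1, met the rule with 3 of 6 pre-granulosa markers, but its defining marker Foxl2 went against that name and it is called by its number. Foxl2 stood there at 0.318 and 0.320 CPM in XY -KTS KO (7 UMIs in each library), against 29.9 and 38.9 CPM in XX WT cluster 3 and 70.7 CPM in cluster 8 of XY +KTS KO library 1. Runx1, an early supporting-lineage gene, stood at 98.1 and 115 CPM in cluster 4 of XY -KTS KO and at 107 and 118 CPM in cluster 14 of XY WT. Cluster 4 gave 1427 of the 1434 and 1220 of the 1225 lineage cells of the XY -KTS KO libraries, so the lineage results of that group rest on it. In XY +KTS KO, cluster 8 gave 3126 of the 3265 lineage cells of library 1. It gave only 7 of the 218 of library 2, where 209 were pre-supporting-like. Lineage values of those 2 libraries thus come from different clusters. Sertoli-like cells made up 26.1% and 25.3% of gonadal somatic cells in the XY WT libraries and at most 0.0777% in each other XY library. The names could thus not be matched across genotypes cell for cell, and in sums over a gonad fewer cells of a type and less RNA per cell cannot be told apart.

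**Figure D1:**
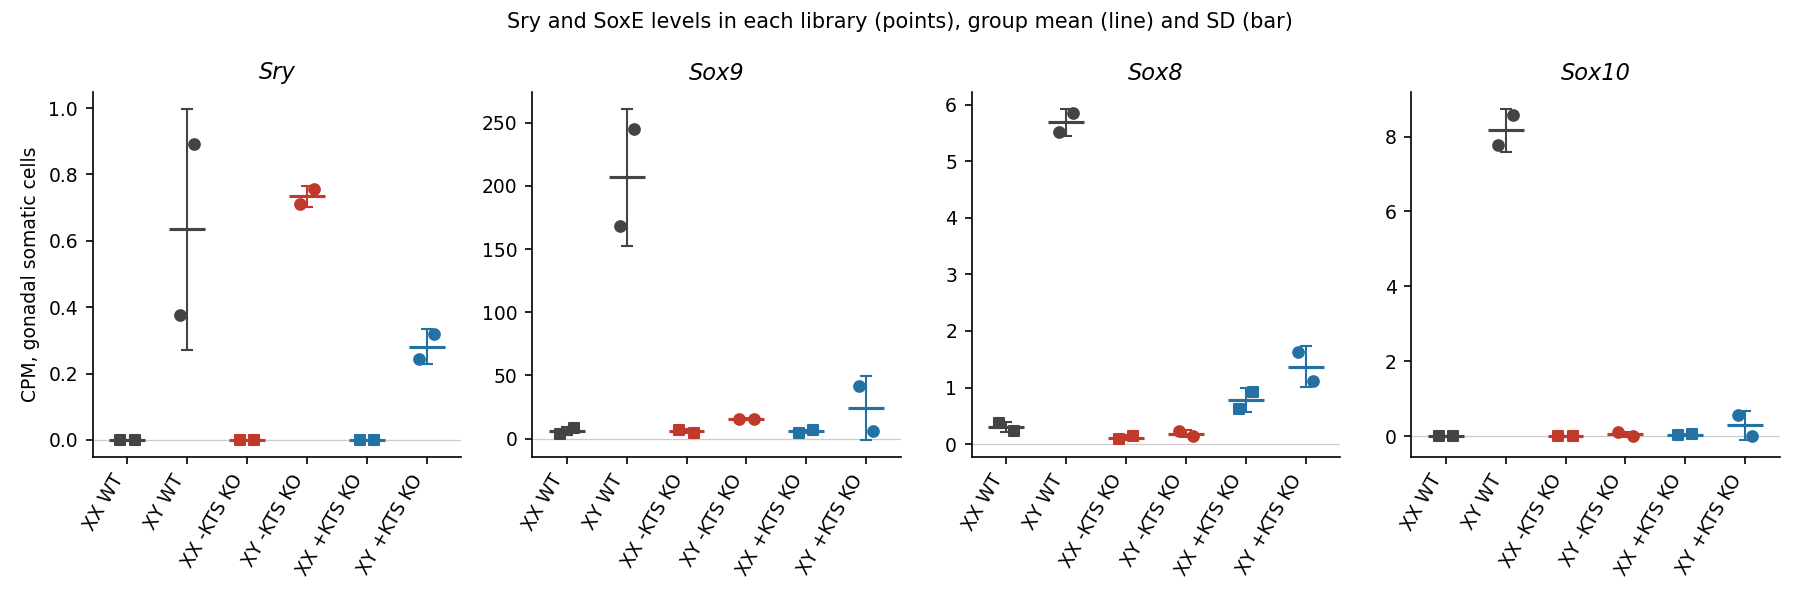
Level of each gene (CPM, linear axis from 0, a different range for each gene) in gonadal somatic cells of the 12 libraries, with a point for each library, a line for the group mean and a bar for the SD over 2 libraries. Sox9, Sox8 and Sox10 are highest in both XY WT libraries, whereas Sry in XY -KTS KO lies within the range of the XY WT libraries.

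Sry transcripts were counted in XY gonads of all 3 genotypes and in no XX gonad. Gonadal somatic cells of XY WT gave 26 and 58 Sry UMIs, XY -KTS KO 50 and 62, and XY +KTS KO 20 and 31. None of the 6 XX libraries gave any, which allows at most 0.0312 to 0.0525 CPM per library (3 counts of the total). No Sry UMI fell in germ, endothelial or erythrocyte-like cells either. Scaled to depth, Sry stood at 0.377 and 0.892 CPM in XY WT (0.634 ± 0.364, SD, n = 2), whereas the XY -KTS KO libraries gave 0.712 and 0.757 CPM. The XY +KTS KO libraries gave 0.243 and 0.319 CPM. Both -KTS KO values sat between the 2 WT values, while both +KTS KO values lay below them.

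No change in Sry was detectable over the whole gonadal soma of either XY mutant. The log2 fold change of XY -KTS KO over XY WT was 0.21 (SE 0.49, edgeR quasi-likelihood adjusted p = 0.794), and its sign turned without replicate 1 (-0.24). For XY +KTS KO over XY WT it was -1.16 (SE 0.51, adjusted p = 0.174), and for XY -KTS KO over XY +KTS KO 1.38 (SE 0.50, adjusted p = 0.1001). The last 2 were -0.97 (adjusted p = 0.406) and 1.18 (adjusted p = 0.295) without XY +KTS KO library 1. None of the 3 passed an adjusted p of 0.05 with these counts of at most 62 UMIs a library.

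Within the supporting lineage, Sry was higher in XY -KTS KO than in XY +KTS KO, a call that 4 of 7 other settings lost. The libraries gave 1.94 and 2.27 CPM in -KTS KO, 0.963 and 1.55 CPM in WT, and 0.486 and 0.662 CPM in +KTS KO, an order without overlap between the groups. The counts behind the +KTS KO values were 20 UMIs in library 1 and only 2 in library 2. The difference between the 2 mutants was 2.02 on the log2 scale (SE 0.52, edgeR adjusted p = 0.0214), in a comparison in which 28.2% of all genes tested were called. The call was lost without XY +KTS KO library 1 (1.68, adjusted p = 0.307), without replicate 1 (1.77, adjusted p = 0.395) or replicate 2 (1.99, adjusted p = 0.0777) of both groups, and with finer clusters (1.66, adjusted p = 0.0532). It passed with the unnamed clusters 0 and 24, described below, counted in the lineage (1.81, adjusted p = 0.0222). Against WT neither mutant passed (0.73, SE 0.42, adjusted p = 0.237 for -KTS KO and -1.29, SE 0.52, adjusted p = 0.111 for +KTS KO, the latter -0.96, adjusted p = 0.578, without library 1).

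Inside XY WT gonads Sry was not highest in the cells called Sertoli-like. Pre-supporting-like cluster 14 held 46 Sry UMIs, or 1.94 CPM (95% Poisson interval 1.42 to 2.59, counting error only), and Sertoli-like cluster 12 held 23, or 0.624 CPM (0.395 to 0.936). The order was the same in each library, with 2.10 and 1.87 CPM in cluster 14 and 0.406 and 0.874 CPM in cluster 12. The remaining 15 UMIs of XY WT included 6 in the small pre-supporting-like cluster 19, or 4.41 CPM (1.62 to 9.59), and 3 in cluster 26, or 3.69 CPM (0.761 to 10.8). Those 2 values lay above that of cluster 14, with intervals that overlapped its own. A further 4 lay in clusters 3 and 4, and only 2 lay outside the lineage. In XY -KTS KO, 89 of 112 Sry UMIs came from cluster 4 at 1.86 and 2.19 CPM, values that overlap those of XY WT cluster 14. Coelomic epithelium-like cluster 7 gave 16 more, at 0.432 CPM.

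The source of the Sry UMIs differed between the 2 libraries of XY +KTS KO. Clusters 0 and 24 were led by Cyp11a1, Pnmt and Inha, and 64.6% and 66.9% of their cells were XX +KTS KO. At least 3 markers of a supporting cell type were raised in each, but the naming rule left them unnamed. Lineage values thus leave them out, except where said. They held 38.1% of the XX +KTS KO cells kept and 18.7% of those of XY +KTS KO. In library 2 they held 23 and 4 of the 31 Sry UMIs, at 0.667 and 0.945 CPM. In library 1, which had 50 cells in cluster 0, they held none, and 19 of its 20 UMIs lay in pre-granulosa-like cluster 8, at 0.546 CPM. All 3 values lay below the 1.94 CPM of XY WT cluster 14. The Poisson interval of cluster 24 with its 4 UMIs, 0.257 to 2.42 CPM, included that level. Those of cluster 0 (0.423 to 1.00) and cluster 8 (0.329 to 0.853) did not.

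**Figure D2:**
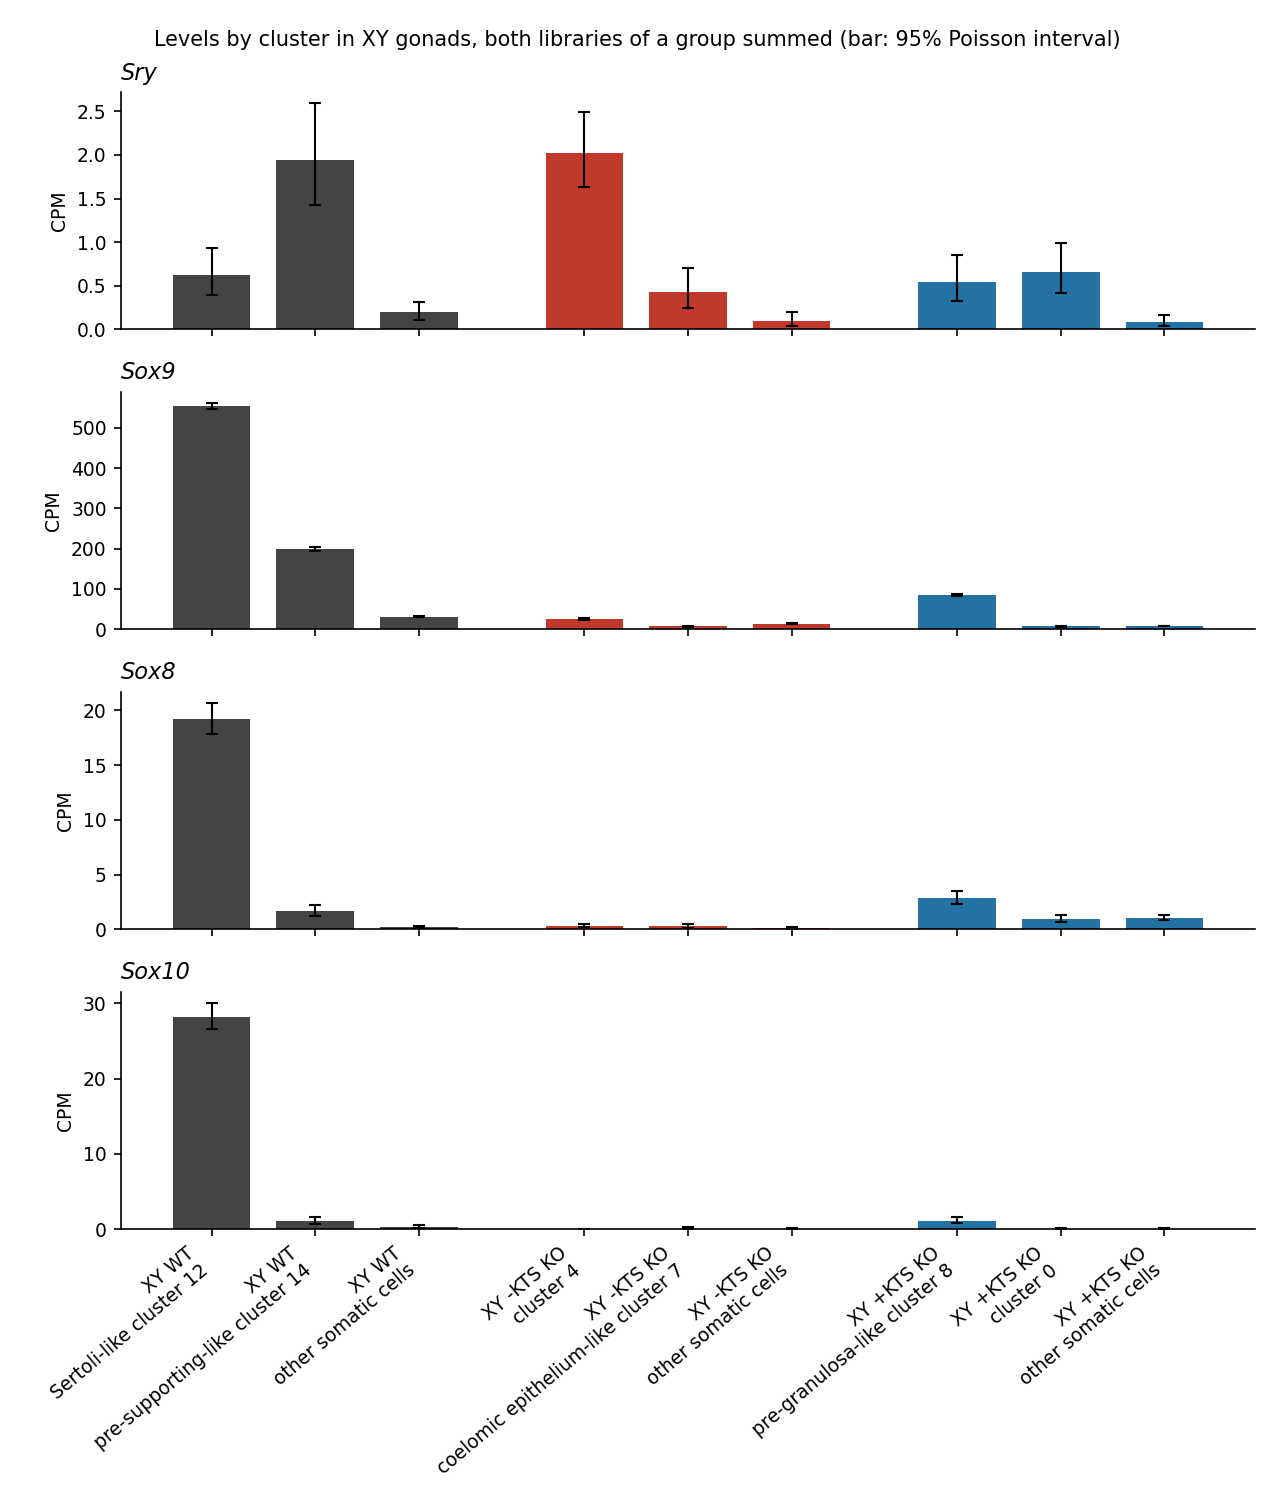
Level of each gene (CPM, both libraries of a group summed, a different linear axis from 0 for each gene) in the clusters of XY WT, XY -KTS KO and XY +KTS KO gonads, with 95% Poisson intervals for counting error only. Among the clusters drawn, which leave single small clusters in the remainder, Sry is highest in pre-supporting-like cluster 14 of XY WT and in cluster 4 of XY -KTS KO, whereas Sox9, Sox8 and Sox10 are highest in Sertoli-like cluster 12.

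Few cells carried a Sry UMI. After each cell was thinned to 5000 UMIs, which left out 5040 shallower cells, 0.323% ± 0.174 (SD, n = 2) of XY WT gonadal somatic cells did so, 0.413% ± 0.0905 of XY -KTS KO and 0.151% ± 0.0678 of XY +KTS KO. The cells left out were uneven: 1587 of 6435 in XY +KTS KO library 1 and 903 of 4081 in XX -KTS KO library 2, against 206 to 286 in each other XY library. Thinned shares of those 2 libraries thus come from their deeper cells. Without thinning the shares were 0.794%, 1.10% and 0.375%. Thinned to 2000 UMIs, XY WT and XY -KTS KO changed order, as given in the last paragraph. In the endothelial-like cells of XY WT, which should lack the gene, 0 of 624 had one after the same thinning, from a median depth of 13452 and 15537 UMIs in the 2 libraries. Within XY WT, 0.910% ± 0.200 of cluster 14 and 0.327% ± 0.0454 of cluster 12 had a Sry UMI, and 1.28% ± 0.207 of cluster 4 did in XY -KTS KO. With 2 libraries against 2, no permutation test of shares can go below p = 0.33, so none was run.

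Sox9 fell in both XY mutants. It stood at 168 and 245 CPM in XY WT (207 ± 54.5, SD, n = 2), at 15.4 and 15.9 CPM in XY -KTS KO, and at 41.9 and 6.30 CPM when +KTS was lost. XX libraries ranged from 3.83 to 8.03 CPM over the 3 genotypes. Both XY -KTS KO libraries lay above all 6 XX libraries, whereas the XY +KTS KO libraries differed from each other, the second lying within the XX range. The fall from XY WT was -3.72 on the log2 scale in -KTS KO (SE 0.73, edgeR adjusted p = 0.00571) and -3.10 in +KTS KO (SE 0.71, adjusted p = 0.0218). Without XY +KTS KO library 1 the latter was -5.02. The -KTS KO call was lost when 1 replicate number was left out of both groups (-3.95, adjusted p = 0.0805 without replicate 1 and -3.44, adjusted p = 0.110 without replicate 2).

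For Sox9 the difference XY -KTS KO minus XY +KTS KO was -0.62 (SE 0.66, adjusted p = 0.540), and its sign turned without XY +KTS KO library 1 (1.29, adjusted p = 0.0768). Within the supporting lineage it was -0.82 (SE 0.49, adjusted p = 0.234), passed without replicate 2 of both groups (-1.38, adjusted p = 0.0252) and turned its sign without XY +KTS KO library 1 (0.75, adjusted p = 0.292). In XX gonads no difference between genotypes passed: -KTS KO minus WT was -0.03 (adjusted p = 0.985), +KTS KO minus WT -0.08 (adjusted p = 0.976) and -KTS KO minus +KTS KO 0.05 (adjusted p = 0.972). Without XX -KTS KO library 2 the first was 0.22, with its sign turned, and the last 0.30.

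Within supporting-lineage cells Sox9 kept its direction. It stood at 408 and 418 CPM in XY WT and at 2.56 and 5.23 CPM in XX WT. The XY -KTS KO libraries gave 29.1 and 26.8 CPM, and those of XY +KTS KO 76.2 and 16.9 CPM. The 4 groups did not overlap apart from XY -KTS KO and XY +KTS KO. The log2 fold change against XY WT was -3.88 in -KTS KO (SE 0.54, edgeR adjusted p = 0.000300) and -3.07 in +KTS KO (SE 0.52, adjusted p = 0.0021), the latter -4.64 without library 1. The XY +KTS KO lineage rested on 3265 cells of library 1 and 218 of library 2. The difference thus held among cells of the same lineage call, although different clusters made up most of the lineage in each group. These were 12 and 14 in XY WT, 4 in XY -KTS KO and 8 in XY +KTS KO library 1. In XY +KTS KO library 2, cluster 8 gave 7 of the 218 lineage cells, and 209 were pre-supporting-like.

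Between the main lineage clusters of XY WT, 12 and 14, Sox9 stood in the opposite order to Sry. Sertoli-like cluster 12 stood at 462 and 658 CPM and pre-supporting-like cluster 14 at 181 and 208 CPM. In the small clusters 19 and 26 Sox9 stood at 371 and 303 CPM, so that both genes were above their level in cluster 14. The XX WT cells that fell in cluster 14 gave only 3.82 and 5.87 CPM, so the same cluster differed in Sox9 by the sex of the library. Of all 27894 Sox9 UMIs in XY WT, 93.0% were in supporting-lineage cells, against 49.0% in XY -KTS KO, 77.1% in XY +KTS KO and 33.1% in XX WT. The lineage made up 36.5%, 23.8%, 23.8% and 43.8% of the cells kept in these groups, in the same order. The XY +KTS KO share rests on library 1, where cluster 8 gave 2938 of the 3185 lineage UMIs of both libraries. Cluster 4 of XY -KTS KO held 26.2 and 24.7 CPM, and cluster 8, nearly all from XY +KTS KO library 1, 84.4 CPM in that library.

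Outside the supporting lineage Sox9 was low and still differed by sex and genotype, in calls that did not hold in every setting. XY WT stood at 23.9 and 21.8 CPM, XX WT at 5.24 and 10.5 CPM, XY -KTS KO at 9.49 and 12.3 CPM and XY +KTS KO at 7.39 and 6.02 CPM. XY WT was above each of the other groups in both libraries. The +KTS KO values here include clusters 0 and 24, in which supporting-type markers were raised. The difference passed for XY +KTS KO over XY WT (-1.77, SE 0.33, edgeR adjusted p = 0.0174, 7.86% of genes called, and -1.91 without XY +KTS KO library 1) and for XY WT over XX WT (1.53, SE 0.33, adjusted p = 0.0413, 2.86% called). Each lost its call when 1 replicate number was left out (-1.70 without replicate 2, and 1.04 without replicate 1). XY +KTS KO over XY WT passed in 7 of 8 other settings and XY WT over XX WT in 4 of 6. For XY -KTS KO it was -1.07 (SE 0.32, adjusted p = 0.0502, 16.6% called). The unnamed cluster 25, led by Plac8, Egfl6 and Pax8 and 90.5% XX WT, held 59.1 and 65.6 CPM in its XX WT cells. Those 553 cells gave 395 of the 663 XX WT Sox9 UMIs counted outside the lineage, so the XX WT level there rests largely on them.

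Sox9 was also counted in cell types that should lack it. In the endothelial-like cells of XY WT Sox9 stood at 8.05 and 11.4 CPM, in the erythrocyte-like cells at 59.2 and 23.8 CPM (108 of their 118 UMIs in the 27 cells of cluster 30) and in the germ-like cells at 1.97 and 2.26 CPM, against 0 and 0.394 CPM in XX WT endothelial-like cells. After thinning, 4.92% ± 1.74 of XY WT endothelial-like cells (29 of 624) had a Sox9 UMI, against 8.84% ± 0.652 of gonadal somatic cells outside the lineage and 34.3% ± 3.45 of all XY WT gonadal somatic cells. The part of these UMIs in the XY values outside the lineage was not tested. The shares were 5.39% ± 0.477 in XY -KTS KO and 11.1% and 2.34% in the 2 XY +KTS KO libraries. Cluster 12 reached 86.2% ± 5.10 and cluster 14 35.0% ± 0.971.

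Sox8 separated the mutants, falling further in XY -KTS KO than in XY +KTS KO. Its level was 5.52 and 5.86 CPM in XY WT (381 UMIs in each library), 0.228 and 0.146 CPM in XY -KTS KO (16 and 12 UMIs) and 1.63 and 1.11 CPM in XY +KTS KO (134 and 108 UMIs). The 3 groups did not overlap. Against XY WT the log2 fold change was -4.93 in -KTS KO (SE 0.40, edgeR adjusted p = 5.86e-05) and -2.05 in +KTS KO (SE 0.34, adjusted p = 0.00542). Between the mutants it was -2.87 (SE 0.38, adjusted p = 0.000742), with -KTS KO lower. Without XY +KTS KO library 1 the last 2 were -2.34 (adjusted p = 0.00995) and -2.59 (adjusted p = 0.00297). In 1 library part of the Sox8 lay in other cells: 40 of the 108 UMIs of XY +KTS KO library 2 lay in cluster 31, 98 cells led by muscle genes, and without that cluster the level in that library was 0.696 CPM (no TMM) and the difference between mutants -2.64.

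In XX gonads Sox8 was lower in -KTS KO than in +KTS KO. It stood at 0.370 and 0.240 CPM in XX WT, 0.0859 and 0.142 CPM in XX -KTS KO and 0.624 and 0.925 CPM in XX +KTS KO, with WT between the mutants and no overlap. The mutants differed by -2.79 on the log2 scale (SE 0.42, edgeR adjusted p = 0.0015), and by -3.15 without XX -KTS KO library 2 (adjusted p = 0.00875). Against XX WT neither passed, with -1.43 in -KTS KO (SE 0.44, adjusted p = 0.0516) and 1.35 in +KTS KO (SE 0.36, adjusted p = 0.0668), and 4 of 13 and 3 of 12 other settings respectively took them past 0.05. Without XX -KTS KO library 2 the first was -1.80 (adjusted p = 0.0939). In XX +KTS KO, 80 of all 142 Sox8 UMIs lay in clusters 0 and 24, at 1.12 and 1.01 CPM. These clusters held 38.1% of the cells kept in that group. Markers of other cell types differed between the same XX mutants. Summed over gonadal somatic cells, germ cell markers stood at 11.8 to 35.3 CPM in XX -KTS KO and at 70.2 to 77.8 CPM in XX +KTS KO. Mesonephric duct or tubule markers stood at 23.2 to 27.0 against 9.52 to 10.7 CPM, endothelial markers at 21.9 to 22.3 against 10.5 to 15.6 CPM, perivascular markers at 27.9 to 30.4 against 15.4 to 20.3 CPM, and neural crest, glial or neuronal markers at up to 7.84 against up to 3.63 CPM, without overlap. Immune and megakaryocyte or platelet markers were under 4 CPM in both, and the ranges of erythrocyte markers overlapped. The part of such cells in the Sox8 difference was not tested.

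In the lineage the order of the XY groups was the same. Supporting-lineage cells held 14.3 and 10.3 CPM of Sox8 in XY WT. The XY +KTS KO libraries gave 2.60 and 1.32 CPM there and the XY -KTS KO libraries 0.331 and 0.283 CPM, again without overlap. The log2 fold change was -5.30 in -KTS KO (SE 0.37, edgeR adjusted p = 5.09e-06), -2.44 in +KTS KO (SE 0.31, adjusted p = 0.000469, and -3.24 without library 1) and -2.86 between them (SE 0.39, adjusted p = 0.000368). The last did not pass without XY +KTS KO library 1 (-2.07, adjusted p = 0.142) or without replicate 1 of both groups (-2.19, adjusted p = 0.167). Most Sox8 in XY WT lay in Sertoli-like cells, where cluster 12 held 708 of 810 UMIs at 18.2 and 20.3 CPM, against 1.57 and 1.68 CPM in cluster 14. In XY +KTS KO, cluster 8 held 100 UMIs (2.87 CPM) and cluster 0 held 32 (0.914 CPM).

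Sox10 was counted mostly in XY WT gonads and fell in both XY mutants. XY WT libraries gave 536 and 558 UMIs in gonadal somatic cells (7.77 and 8.58 CPM), XX WT and XX -KTS KO none, XY -KTS KO 7 and 0, XX +KTS KO 2 and 5, and XY +KTS KO 46 and 1. The XY WT libraries were thus far above all 10 others, and within XY +KTS KO almost all the signal was in library 1. Against the limit of 3 counts over both XX WT libraries, XY WT was at least 410-fold higher, and at least 446-fold higher within supporting-lineage cells. The log2 fold change from XY WT was -7.40 in XY -KTS KO (SE 1.43, edgeR adjusted p = 0.00853) and -4.87 in XY +KTS KO (SE 1.18, adjusted p = 0.0354), the latter not passing with DESeq2 (-4.92, adjusted p = 0.157). It was -9.41 (adjusted p = 0.00636) without XY +KTS KO library 1, with 1 UMI left in that group. The -KTS KO call was lost when 1 replicate number was left out of both groups. Without replicate 2 the fold change was -6.26 (adjusted p = 0.129). Without replicate 1 (adjusted p = 0.0736) XY -KTS KO had 0 Sox10 UMIs left, so the fitted fold change depends on the prior count and is no bound. The mutants did not pass against each other (-2.53, SE 1.48, adjusted p = 0.264). That difference passed without replicate 2 of both groups (-2.44, adjusted p = 0.0288), which leaves library 1 of each, and its sign turned without XY +KTS KO library 1 (2.01).

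The supporting lineage held 97.4% of the Sox10 UMIs of XY WT, and Sertoli-like cluster 12 alone held 1041 of 1104. Cluster 12 stood at 26.1 and 30.6 CPM and cluster 14 at 1.18 and 1.12 CPM. Over the lineage Sox10 was 20.3 and 14.9 CPM in XY WT and 1.02 and 0.331 CPM in XY +KTS KO, a log2 fold change of -4.27 (SE 0.48, edgeR adjusted p = 0.000723), and of -5.74 without library 1. XY -KTS KO had 2 UMIs there, so XY WT was higher by a ratio of 370 (exact interval 102 to 3058, counting error only). XY +KTS KO had 42 UMIs in library 1 and 1 in library 2. Of the 40 Sox10 UMIs in cluster 8, 39 came from XY +KTS KO library 1. Cluster 4 of XY -KTS KO, which held most of the Sry of that genotype, had no Sox10 UMI.

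Sox10 also marks neural crest and glia, so the markers of those cells were read in the same sums. The 5 neural crest, glial or neuronal markers read (Foxd3, Fabp7, Erbb3, Elavl4 and Tubb3) added up to 8.66 to 8.90 CPM in XY WT gonadal somatic cells, 3.40 to 5.31 in XX WT, 9.34 to 13.6 in XY -KTS KO and 2.27 to 7.41 in XY +KTS KO. The members did not move together: in XY -KTS KO Erbb3 stood at 0.167 and 0.210 CPM against 3.90 and 2.88 CPM in XY WT, and Foxd3 had 3 and 0 UMIs against 5 and 8. Fabp7 stood higher, at 9.75 and 5.60 CPM against 3.29 and 4.21 CPM, as did Tubb3, at 2.43 and 2.00 CPM against 0.686 and 0.751 CPM. In cluster 12 all 5 had a UMI in both XY WT libraries and their sum was 20.08 and 14.97 CPM, most of it from Erbb3, while Foxd3 had 4 and 5 UMIs. In cluster 14 the sum was 2.49 and 2.31 CPM. Erbb3, a neuregulin receptor of glia, had 277 of its 290 and 160 of its 184 XY WT somatic UMIs in cluster 12. No cluster was named neural crest, glial or neuronal, and the part of such cells in the Sox10 level was not tested.

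**Figure D3:**
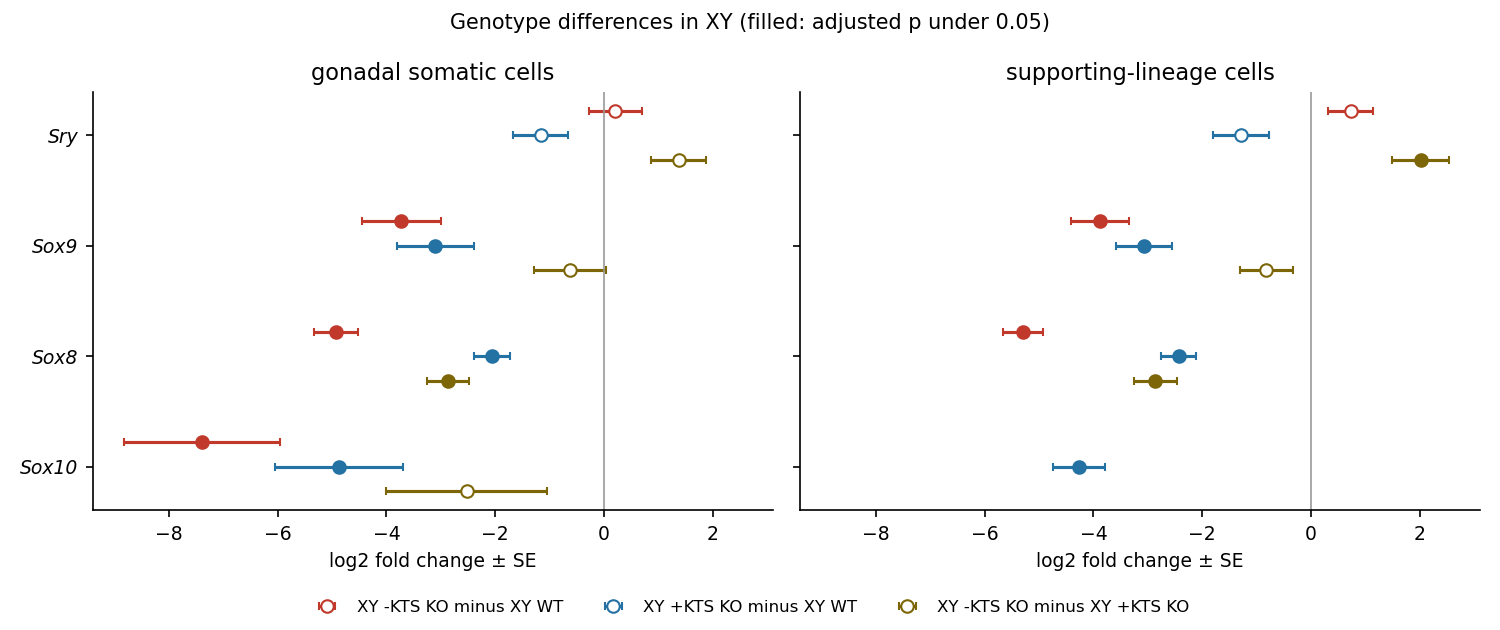
Log2 fold change (± SE) of each gene between XY groups in gonadal somatic cells (left) and supporting-lineage cells (right), filled where the edgeR adjusted p was under 0.05 and open where it was not. The 3 SoxE genes lie left of 0 in both mutants against XY WT, whereas no Sry difference against XY WT is filled, and Sox10 with only 2 UMIs in XY -KTS KO lineage cells has no fitted fold there.

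Counted over the 4 genes in gonadal somatic cells, 3 (Sox9, Sox8 and Sox10) fell in XY -KTS KO against XY WT, where 23.4% of the 17707 genes tested were called. The same 3 fell in XY +KTS KO, where 12.3% were called. Between the XY mutants only Sox8 passed (21.6% called), and between the XX mutants only Sox8 (18.5%). In XX -KTS KO against XX WT (16.2%) and in XX +KTS KO against XX WT (4.98%) neither Sox9 nor Sox8 passed. In supporting-lineage cells Sox9 and Sox8 fell in both XY mutants, with 29.6% of genes called for -KTS KO and 22.1% for +KTS KO. Sox10 fell in the XY +KTS KO lineage too, and with 2 UMIs in that of XY -KTS KO it has no fitted fold there. The comparisons of the mutants with XY WT share the XY WT libraries. Summed germ markers in the same somatic sums stood at 44.2 to 72.7 CPM in XY WT, 11.8 to 12.7 in XY -KTS KO and 48.1 to 69.5 in XY +KTS KO, and summed erythrocyte markers at 250 to 470, 84.1 to 191 and 222 to 293 CPM. Summed markers of mesonephric duct or tubule stood at 12.2 to 17.8 CPM in XY WT, 30.0 to 33.0 in XY -KTS KO and 10.3 to 10.4 in XY +KTS KO, with 6 or 7 of the 7 counted in each library. Perivascular markers stood at 27.0 to 34.6 CPM in XY WT, 31.5 to 37.9 in XY -KTS KO and 18.9 to 23.6 in XY +KTS KO. Their part in these results was not tested.

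The effect of sex on the SoxE genes was large in WT. Sox9 was higher in XY than in XX WT by 5.12 on the log2 scale (SE 0.78, edgeR adjusted p = 0.00328) and Sox8 by 4.23 (SE 0.38, adjusted p = 0.000266), among 13.1% of autosomal genes called. In supporting-lineage cells the differences were 6.72 (SE 0.62, adjusted p = 5.19e-05) and 5.30 (SE 0.35, adjusted p = 1.09e-05), with 21.2% called. The WT difference in Sox9 lost its call without replicate 1 (4.93, adjusted p = 0.0906). In the mutants the same differences were 1.43 for Sox9 and 0.74 for Sox8 in -KTS KO (adjusted p = 0.970 for both) and 2.10 and 0.82 in +KTS KO (adjusted p = 0.997 for both). They were 1.18 and 1.10 without XX -KTS KO library 2, and 0.18 and 0.53 without XY +KTS KO library 1. There edgeR called 0% of autosomal genes, with 747 genes in -KTS KO and 578 in +KTS KO at an unadjusted p under 0.05, and DESeq2 called 6 and 19.

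The sex difference itself was tested between genotypes with an interaction term. For Sox8 it was smaller than in WT by -3.49 in -KTS KO (SE 0.60, edgeR adjusted p = 0.0186, 3.00% of genes called) and by -3.41 in +KTS KO (SE 0.50, adjusted p = 0.00806, 3.78% called). The first lost its call in 4 other settings: without replicate 1 (-4.54, adjusted p = 0.498), without replicate 2 (-2.50, adjusted p = 0.513), without XX -KTS KO library 2 (-3.13, adjusted p = 0.0956) and with cells of every type summed (-3.41, adjusted p = 0.0530), and the second without replicate 2 (-2.51, adjusted p = 0.0889). For Sox9 the term was -3.69 in -KTS KO (SE 0.97, adjusted p = 0.0791) and -3.02 in +KTS KO (SE 0.96, adjusted p = 0.120), which did not pass. The first was -3.94 without XX -KTS KO library 2 (adjusted p = 0.153), and the second passed without XY +KTS KO library 1 (-4.95, adjusted p = 0.00372). For Sox8 the +KTS KO term was -3.70 without that library. Sry and Sox10 had groups without a UMI, so no interaction is given for them.

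Cells with a Sry UMI were set beside their Sox9, cell by cell, after thinning to 5000 UMIs. In XY WT 7 of 13 Sry-positive cells in library 1 (53.8%, exact interval 25.1 to 80.8) and 11 of 20 in library 2 (55.0%, 31.5 to 76.9) also had Sox9, against 31.8% and 36.6% of the cells without Sry. Conversely 7 of 2063 and 11 of 1645 Sox9-positive cells had a Sry UMI. Most Sox9-positive cells were thus without a counted Sry transcript at this depth, which does not show that Sry was absent from them. In XY -KTS KO 1 of 17 and 3 of 22 Sry-positive cells had Sox9 (5.88% and 13.6%, against 5.05% and 5.69% of the others). In XY +KTS KO it was 3 of 5 and 1 of 13. The cells without Sry, here and below, came from all gonadal somatic clusters. By contrast, 82 of the 84 Sry UMIs of XY WT (without thinning) lay in the lineage. The part of cluster make-up in these differences was not tested. The cells of a library are not replicates, and no test was made.

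**Figure D4:**
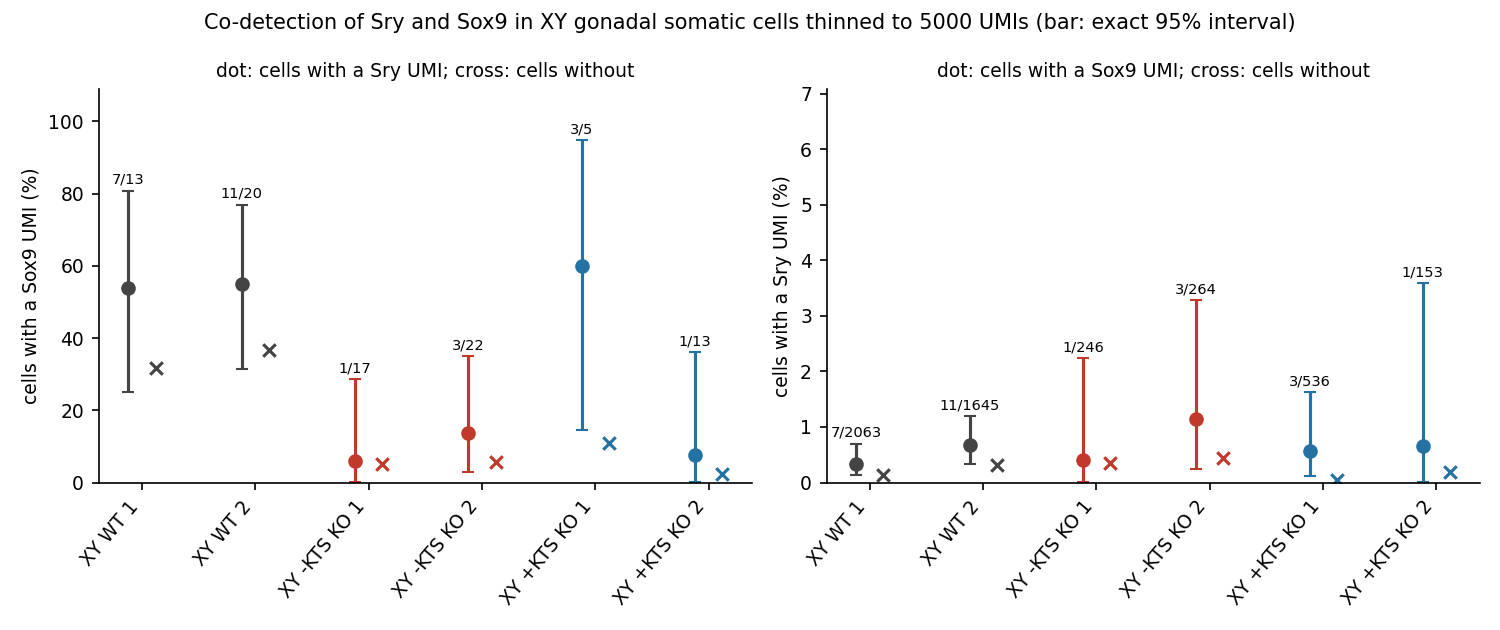
Share of XY gonadal somatic cells (%, thinned to 5000 UMIs) with a Sox9 UMI among cells with (dot) and without (cross) a Sry UMI (left), and with a Sry UMI among cells with and without a Sox9 UMI (right), for each library, with exact 95% intervals and counts above the dots. In XY WT 53.8% and 55.0% of Sry-positive cells had Sox9, and in XY -KTS KO 5.88% and 13.6%.

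At 5000 UMIs a cell no Sry-positive cell of any XY library had a Sox8 or a Sox10 UMI. In XY WT these were 13 and 20 cells, which allows shares of up to 24.7% and 16.8% (exact intervals). Of XY WT cells without Sry only 2.37% and 2.51% had Sox8, and 3.22% and 3.47% had Sox10. So few cells do not show that the genes exclude each other. Without thinning, 7 of 57 Sry-positive cells of XY WT library 2 had Sox8 and 6 of 57 had Sox10, against 6.18% and 8.66% of its other cells, and none of the 25 of XY WT library 1 had either. Runx1 was found in 4 of 13 and 8 of 20 Sry-positive XY WT cells (against 11.1% and 22.2% of cells without Sry), and in XY -KTS KO in 6 of 17 and 11 of 22 (against 11.9% and 11.4% of cells without Sry). Amh, the Sertoli hormone that removes the Müllerian duct, was found in 4 of 13 and 3 of 20 Sry-positive XY WT cells, against 21.8% and 14.1% of those without Sry.

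Detection of Sox9, Sox8 and Sox10 overlapped in XY WT cells. Sox8 was detected in 5.87% and 5.96% of Sox9-positive cells against 0.724% and 0.493% of Sox9-negative cells, and Sox10 in 7.85% and 8.63% against 1.04% and 0.458%. As a background at the same depth, Sox8 was detected in 0.101% and 0.301% of the germ-like cells of these libraries. Sox10 was in 0 of 992 and 0 of 997 germ-like cells, which allows shares of up to 0.302% and 0.301%. Of Sox10-positive cells 77.9% and 91.6% had Sox9, against 30.3% and 34.7% of Sox10-negative cells, and of Sox8-positive cells 79.1% and 87.5%, against 30.7% and 35.4%. Amh was in 52.6% and 31.7% of Sox9-positive cells, against 7.42% and 3.84% of the others, and in 78.8% and 47.7% of Sox10-positive cells, against 19.9% and 12.9%. Germ-like cells had Amh in 0.201% to 1.11%. In XY +KTS KO library 1, Sox9-positive cells had more of the ovarian regulator Foxl2 (23.9% against 11.9%) and of Runx1 (61.4% against 37.6%) than Sox9-negative cells. That pattern is given for this library only, which stood apart in Fos and gave most of cluster 8. These shares come with the same depth in every cell but not with the same cell types.

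Genes with the most similar pattern were sought over sums of UMIs by library and cluster, by Pearson's r of log2(CPM + 1), as a description with no test, since sums from 1 library share their depth. For Sry (71 sums of XY libraries, 23 of them with a UMI) these were Ugt2b36 (r = 0.915), 2210407C18Rik (0.910), Gm7298 (0.908), Chst4 (0.901) and 8430437L04Rik (0.893), while Sox9 came 188th (0.663). For Sox9 (155 sums) they were Lmo4 (0.714), 2610035D17Rik (0.702), Gstm7 (0.701), Pcsk5 (0.695) and Spin2c (0.688). The noncoding 2610035D17Rik lies on the same chromosome at 113043895 to 113201838 on the minus strand, 256135 bases from Sox9. For Sox8 they were Amh (0.633), Mmd2 (0.603), Cspg5 (0.581), Ankrd63 (0.580) and Zan (0.579). For Sox10 (33 sums with a UMI) they were Col9a3 (0.767), Lncbate6 (0.708), Mmd2 (0.697), Gdnf (0.674) and Kazald1 (0.670), with Sox8 20th (0.547) and Sox9 46th (0.471). Amh, Mmd2 and Col9a3 are also on the list of Sertoli genes used below.

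Of 15 genes known to act before Sry, 3 were higher and 1 lower in XY -KTS KO than in XY WT and 11 did not pass, with a median log2 fold change of 0.27. The share called was near the 23.4% of all genes called there. Over all genes the median was 0.02 in this comparison, 0.05 for XY +KTS KO over XY WT, -0.01 between the XY mutants and -0.02 for XY over XX WT. Nr5a1, a nuclear receptor of the gonad that acts on Sry and Sox9, fell from 43.4 and 60.3 CPM to 12.5 and 18.0 CPM (-1.76, SE 0.24, edgeR adjusted p = 0.000843). Kdm3a, a histone H3K9 demethylase that opens Sry chromatin, was higher, at 77.6 and 94.8 CPM against 25.8 and 40.2 CPM in WT (1.39, SE 0.22, adjusted p = 0.00192). Emx2 was higher too, at 154 and 162 CPM against 62.8 and 95.1 CPM (1.00, SE 0.20, adjusted p = 0.00595). In XY +KTS KO only Emx2 passed, at 229 and 191 CPM (1.41, SE 0.20, adjusted p = 0.00285), and 14 did not, where 12.3% of all genes were called. Without XY +KTS KO library 1, 2 of 16 were higher and 1 lower, with 9.20% of all genes called and Emx2 at 1.29. Wt1 itself did not pass in either mutant (0.53, adjusted p = 0.0571 in XY -KTS KO and 0.29, adjusted p = 0.302 in XY +KTS KO).

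Genes acting after Sry or Sox9 fell with the SoxE genes. Of 14 Sertoli genes 12 fell in XY -KTS KO (median -4.86, 23.4% of all genes called), 12 in XY +KTS KO (median -3.04, 12.3%), and 13 were higher in XY than in XX WT (median 4.33, 13.1%). With XY +KTS KO library 1 left out, 12 fell there as well (median -3.66, 9.20%). Dhh, a signal from Sertoli to Leydig cells, fell from 73.0 and 43.4 CPM in XY WT to 0.0569 and 0.0122 CPM in XY -KTS KO (-10.72, SE 0.54, edgeR adjusted p = 5.78e-06), and Amh from 202 and 68.6 CPM to 0.185 and 0.171 CPM (-9.56, SE 0.85, adjusted p = 9.62e-05). Dmrt1 (-0.74, SE 0.64, adjusted p = 0.445) and Mro (-0.38, SE 0.39, adjusted p = 0.528) did not pass there. In XY +KTS KO the largest falls were in Col9a3 (-6.26, SE 0.74, adjusted p = 0.00136), Cst9 (-5.01, SE 0.66, adjusted p = 0.00196) and Mro (-4.19, SE 0.46, adjusted p = 0.000974), while Ptgds, the prostaglandin D synthase that acts on Sox9, did not pass (-1.84, SE 0.93, adjusted p = 0.212). Without library 1 these were -8.11, -4.30, -4.04 and -3.78, the last again not passing (adjusted p = 0.0605). Between the XY mutants 8 of the 14 were lower in -KTS KO and 1 higher, where 21.6% of all genes were called, and without library 1 it was 8 and 2 (15.5%).

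In XX gonads part of the Sertoli list differed between genotypes as well. In XX +KTS KO 4 of 14 rose against XX WT and 10 did not pass, where 4.98% of all genes were called, with Amh at 19.9 and 7.41 CPM against 0.281 and 0.371 CPM (5.37, SE 0.73, edgeR adjusted p = 0.00455) and Dhh at 5.98 and 4.56 CPM against 0.370 and 0.415 CPM (3.74, SE 0.37, adjusted p = 0.00155). In XX -KTS KO 2 rose, 3 fell and 9 did not pass, where 16.2% of all genes were called, and without library 2 of that group 1 rose and 3 fell (6.92%). Sox9 stayed at 4.73 and 6.51 CPM in XX +KTS KO, between the XX WT values of 3.83 and 8.03 CPM.

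On the ovarian side, 4 of 13 genes rose and 2 fell in XY -KTS KO (median 0.69, 23.4% of all genes called), and 7 rose and none fell in XY +KTS KO (median 1.88, 12.3%). With that group's library 1 left out, 6 rose and none fell (median 1.27, 9.20%). Wnt4 rose in XY -KTS KO from 35.7 and 73.7 CPM to 308 and 234 CPM (2.31, SE 0.41, edgeR adjusted p = 0.00348), and Rspo1, its partner in the ovarian pathway, from 50.5 and 60.2 CPM to 239 and 220 CPM (2.05, SE 0.31, adjusted p = 0.00158). Foxl2 fell in XY -KTS KO (-3.54, SE 0.92, adjusted p = 0.0209) and rose in XY +KTS KO (4.25, SE 0.69, adjusted p = 0.00507, and 3.02, adjusted p = 0.0108, without library 1). Between the mutants 5 of the 13 genes were lower in -KTS KO, none was higher and 8 did not pass (21.6% of all genes called), and without library 1 it was 4 lower and 1 higher (15.5%).

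Of 13 other Sox genes tested, 2 were higher and 4 lower in XY -KTS KO than in XY WT (median -0.95, 23.4% of all genes called), and 1 higher and 2 lower in XY +KTS KO (median -0.36, 12.3%). Without XY +KTS KO library 1, none of 14 was higher and 3 were lower there (9.20%). Sox15 fell from 8.17 and 4.68 CPM in XY WT to 0.228 and 0.293 CPM in XY -KTS KO (-4.61, SE 0.65, edgeR adjusted p = 0.00104) and to 0.170 and 0.0926 CPM in XY +KTS KO (-5.61, SE 0.69, adjusted p = 0.00152, and -6.08 without library 1). Sox13 fell in both (-1.88, SE 0.22, adjusted p = 0.000398 and -1.12, SE 0.22, adjusted p = 0.0105). Sox18, a gene of endothelial cells, fell from 7.55 and 2.49 CPM to 0.399 and 0.244 CPM in XY -KTS KO (-3.97, SE 0.51, adjusted p = 0.000649) and rose in XX +KTS KO from 0.916 and 0.907 CPM to 11.99 and 8.25 CPM (3.47, SE 0.48, adjusted p = 0.00487). The summed endothelial markers stood at 17.1 to 26.3 CPM in XY WT, 21.3 to 23.5 in XY -KTS KO, 14.9 to 20.5 in XX WT and 10.5 to 15.6 in XX +KTS KO, and their part in the Sox18 values was not tested.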

How the data were processed

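The deposited files hold raw UMI counts per gene and cell barcode, which the authors made from 10x 3′ reads of dissociated gonads with Cell Ranger 6.0 on mm10, per the submitters' processing notes. How strand was used in counting is not given in the sources used here. Per-library totals ran from 108111924 to 147968666 UMIs, which sets the precision of low genes such as Sry. Intervals and limits cover counting error only.

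The filter on cells was 1000 genes or more and a mitochondrial share of no more than 10%, and the cells with the highest doublet scores were removed from each library (Scrublet in scanpy 1.11.5, at 0.8% per 1000 barcodes), since the caller's own threshold marked almost none in most libraries. Cells were normalised with sctransform 0.4.2 and clustered with Seurat 5.3.0 (3000 variable genes without the 4 Sox genes, 50 components, resolution 0.8). A cluster was named when at least 3 markers of a cell type were raised (log2 fold of at least 1, detected in at least 20% of its cells) and its leading genes did not go against the name, and cluster 4, which met this rule almost without Foxl2, is called by its number. UMIs were summed per library over gonadal somatic, supporting-lineage and other somatic cells and tested in edgeR 4.0.16 (TMM, filterByExpr, quasi-likelihood, 6 groups of 2 libraries, R 4.3.3), p-values being adjusted by Benjamini-Hochberg across the whole table (FDR 0.05), a step tested on simulated data. DESeq2 1.42.0 was an alternative. XY against XX used autosomal genes. Fold changes are on the log2 scale. Each SE was derived as the absolute log2 fold change over the square root of the quasi-likelihood F statistic. CPM values of tested sums use TMM. Shares were counted after thinning each cell to 5000 UMIs. Same-numbered libraries were checked for pairing by correlating their deviations from the group means: 3 of 15 pairs were over 0.1, so the numbers were not used as pairs.

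The 4 genes, the lists and the settings were chosen with earlier results of these data known. From each list up to 3 genes past the FDR and 2 that did not pass are named, by size of change. Sequences and positions come from the GENCODE M21 annotation of GRCm38, the build of mm10, in which 32158 of 32285 gene identifiers were found. Some marker genes of the neural list are not reported here, and the summed level leaves them out.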

Additional observations from a re-analysis of the deposited data

Results flagged for a closer look

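The difference between XY and XX gonads in Sox8 was smaller in both mutants than in WT, by an interaction term in the 6-group edgeR model. The term was -3.49 on the log2 scale for -KTS KO (adjusted p = 0.0186) and -3.41 for +KTS KO (adjusted p = 0.00806). Sox8 stood at 5.52 and 5.86 CPM in XY WT against 0.370 and 0.240 CPM in XX WT. In -KTS KO it was 0.228 and 0.146 CPM in XY against 0.0859 and 0.142 CPM in XX, and in +KTS KO 1.63 and 1.11 CPM against 0.624 and 0.925 CPM. The XY values lay above the XX values in each genotype, but in -KTS KO 0.146 and 0.142 CPM were nearly equal. XY against XX passed in neither mutant (edgeR adjusted p = 0.970 in -KTS KO and 0.997 in +KTS KO). The higher value of XY +KTS KO library 2 turned on cluster 31, 98 cells led by muscle genes. Without it the library stood at 0.696 CPM (no TMM), below XX +KTS KO library 2. Both terms share the WT libraries, and the first lost its call in 4 alternatives.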

How the results depend on the processing

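Over the 43 log2 fold changes of the 4 genes, 416 alternative values kept their direction and their side of an adjusted p of 0.05, 20 lost the call, 17 gained it and 14 changed sign. The falls of Sox8 and Sox10 within the supporting lineage of XY +KTS KO, and those of Sox9 and Sox8 in XY -KTS KO, kept direction under every alternative run. With the replicate block the fold changes of Sox9, Sox8 and Sox10 in XY -KTS KO against XY WT were -3.73, -4.93 and -7.74, and the block changed no call of the 4 genes. The cause of the changes below was not tested, other than that leaving out a replicate number leaves 1 library a group, assumed to vary like the others. Sry rested on at most 62 UMIs a library, so smaller differences were not detectable with these counts. Whether Sry reads past its annotated end went uncounted was not tested. The alternatives without single named libraries, with the unnamed clusters 0 and 24 counted in and without the muscle-gene cluster were chosen after seeing the data.

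Sox9 differences near 0 in XX changed sign with doublets kept (0.0290 for -KTS KO minus WT) and with all kept cells summed (0.13 for +KTS KO minus WT and -0.13 for -KTS KO minus +KTS KO). The Sox9 interaction passed in DESeq2 for -KTS KO (-3.72) and with no filter on low counts for -KTS KO (-3.70) and +KTS KO (-3.07). Sox8 in XX -KTS KO against XX WT passed in DESeq2 (-1.45), with median-ratio size factors (-1.44), with no filter (-1.44) and with doublets kept (-1.36). Sox8 in XX +KTS KO passed in DESeq2 (1.36), with no filter (1.37) and with doublets kept (1.45). The Sox8 interaction for -KTS KO did not pass with all kept cells (-3.41), nor did Sox10 in XY +KTS KO in DESeq2 (-4.92). In the lineage, the Sry difference between the XY mutants did not pass at resolution 1.2 (1.66). Outside it, Sox9 in XY -KTS KO passed at resolution 0.4 (-1.13) and with log-normalised clustering (-1.14).

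Leaving out libraries, the fold changes in gonadal somatic cells ran from -0.24 to 0.92 for Sry in XY -KTS KO against WT. For Sox9 they ran from -0.77 to 0.85 in XX -KTS KO and from -0.30 to 0.30 in XX +KTS KO against WT, from -3.95 to -3.44 in XY -KTS KO against WT, from -0.47 to 0.55 between the XX mutants and from -1.41 to 1.32 between the XY mutants. XY minus XX Sox9 ran from 4.93 to 5.44 in WT and from -0.0323 to 3.14 in +KTS KO, and its +KTS KO interaction from -4.98 to -2.31. The Sox8 interaction ran from -4.54 to -2.50 for -KTS KO and from -4.34 to -2.51 for +KTS KO. Sox10 ran from -12.43 to -6.26 in XY -KTS KO against WT and from -2.92 to 2.01 between the XY mutants; XY -KTS KO has 0 UMIs left in the fits that give -12.43 and -2.92, which depend on the prior count and bound nothing. In the lineage the difference between the XY mutants ran from 1.68 to 1.99 for Sry, from -1.38 to 0.75 for Sox9 and from -2.95 to -2.07 for Sox8. Outside it Sox9 ran from -1.91 to -1.70 for XY +KTS KO against WT and from 1.04 to 2.21 for XY minus XX WT.

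The number of genes called moved more than the 4 genes did. With all kept cells it was 1463 for XX -KTS KO, 2409 for XY -KTS KO and 447 for XX +KTS KO against WT, 1126 for XY minus XX WT, and 144 and 231 for the -KTS KO and +KTS KO interactions. In DESeq2 it was 1504 for XX +KTS KO against WT, 6 and 19 for XY minus XX in -KTS KO and +KTS KO, and 1242 and 1436 for the interactions. With no filter the same 5 numbers were 1358, 2, 2, 941 and 1158. Leaving out libraries it ran from 334 to 1273 in XX -KTS KO, from 1223 to 1243 in XY -KTS KO, from 5 to 7 in XX +KTS KO and from 1098 to 3867 in XY +KTS KO against WT, from 754 to 1920 between the XX mutants, from 1844 to 4572 between the XY mutants, from 196 to 708 for XY minus XX WT, from 0 to 33 for XY minus XX +KTS KO, and from 0 to 121 and 215 to 636 for the interactions.

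Shares of cells moved with the depth they were thinned to. At 2000 UMIs 0.130% of XY WT, 0.0704% of XY -KTS KO and 0.0527% of XY +KTS KO somatic cells had a Sry UMI, so XY WT and XY -KTS KO changed order. At 8000 UMIs the mutants had 0.614% and 0.223%, and without thinning the 3 groups had 0.794%, 1.10% and 0.375%. For Sox9 the XY WT share was 22.6%, 41.7% and 43.8% at 2000 UMIs, at 8000 UMIs and without thinning, and the XY -KTS KO share 2.81%, 7.87% and 11.6%. For Sox8 XY WT had 0.999%, 4.07% and 5.50%, XY +KTS KO 0.341%, 1.19% and 1.66%, and XY -KTS KO 0% at 2000 UMIs and 0.271% without thinning. For Sox10 XY WT had 1.46%, 5.88% and 7.76%. Of XY WT Sox9-positive cells 0.853% had Sry at 8000 UMIs and 1.33% without thinning, of those of XY +KTS KO 0.269% and 0.811%, and of those of XY -KTS KO 1.86% without thinning. Of Sry-positive cells 75.5% and 74.6% had Sox9 in XY WT, and 15.9% and 19.6% in XY -KTS KO.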
